A study of Homo sapiens with 6 samples.

Results

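Transcripts of the transforming growth factor beta (TGF-beta) pathway were examined after knockdown of N6AMT1. The 10 genes examined were listed by name, with earlier results of these data known, and are the ligands TGFB1 and TGFB2, the receptors TGFBR1, TGFBR2 and TGFBR3, the signal carriers SMAD2, SMAD3 and SMAD4, the inhibitor SMAD7 and the target TGFBI. All 10 are among the 62438 genes of the count table, and all 10 passed the filter on low counts that left 17320 genes for testing. The cells are labelled MDA-MB-453, which is a line of human breast cancer. RNA was sequenced from 3 libraries transfected with 10 nM si-N6AMT1, a small interfering RNA (siRNA) against N6AMT1, and from 3 libraries transfected with 10 nM scrambled siRNA (si-CN), all harvested after 48 h. The labels describe triplicate cells of 1 line with no other genotype or agent, and the knockdown is transient and acts on the transcript. N6AMT1 encodes a methyltransferase that the study examines as a writer of N6-methyladenine (6mA) in DNA, and the comparison asks which transcripts differ when it is reduced.

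TGF-beta ligands are secreted in a latent form and, once released, bind the type II receptor TGFBR2, which then phosphorylates the type I receptor TGFBR1. TGFBR1 phosphorylates SMAD2 and SMAD3, which join SMAD4 and enter the nucleus to regulate target genes, while SMAD7 blocks the receptor and is itself induced by the signal. In breast epithelium the pathway is known for arresting growth of normal cells and, in advanced cancer, for promoting invasion and mesenchymal change.

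The 3 receptors were the members that differed most. TGFBR1 fell, whereas TGFBR2 and TGFBR3 rose. Ligand transcripts were not called as different, and neither were SMAD2, SMAD4 and SMAD7. TGFBI fell by 6.77%. SMAD3 fell by 5.13%, a call that was lost in 8 of 13 alternative settings. In all, 3 of the 10 members were lower and 2 were higher in si-N6AMT1 libraries (edgeR quasi-likelihood test, threshold of 0.05 on the false discovery rate, FDR, which is the p adjusted over all genes tested), beside 11.5% and 9.78% of all genes tested. The libraries of the groups did not overlap for 6 members, beside 34.9% of all genes tested. Across the members the median log2 fold change was -0.04, beside 0.00 over all genes tested. Whether the members as a set differ from other genes was not tested.

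N6AMT1 itself had 136, 135 and 141 counts in the si-CN libraries and 61, 72 and 60 in the si-N6AMT1 libraries. Its level fell from 6.81 ± 0.145 to 3.18 ± 0.312 CPM (counts scaled to a common library size, mean ± SD, n = 3 each), a log2 fold change of -1.10 (SE 0.119, FDR = 3.65e-07 from edgeR). Library totals ran from 19739247 to 21289740 counts, so that 1 CPM stood for 19.7 to 21.3 counts. MDA-MB-453 is known as a line of luminal character. Of 10 luminal markers, 3 were under 1 CPM, among them SPDEF and KRT19, and the other 7 were detected above that level. All 6 basal markers were also above 1 CPM, with the basal keratin KRT5 at 768 CPM and KRT17 at 2848 CPM in si-CN libraries. The markers were thus mixed, and the cells are referred to by their label. The summed level of the luminal markers ran from 1507 to 1547 CPM in si-CN and from 1560 to 1581 CPM in si-N6AMT1 libraries, and that of the basal markers from 3925 to 4006 and from 3992 to 4075 CPM. Of 8 fibroblast markers, 5 were under 1 CPM, and their sum was 56.9 to 61.2 CPM in si-CN and 57.8 to 61.8 CPM in si-N6AMT1 libraries. All 5 endothelial markers found in the table were under 1 CPM in both groups. Leukocyte markers summed to 142 CPM in each si-CN library and to between 196 and 204 CPM in si-N6AMT1 libraries, but 5 of the 6, among them PTPRC, were under 1 CPM and the sum was almost all CD68, a lysosomal gene. The part of the basal and luminal shifts in the results below was not tested.

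**Figure D1:**
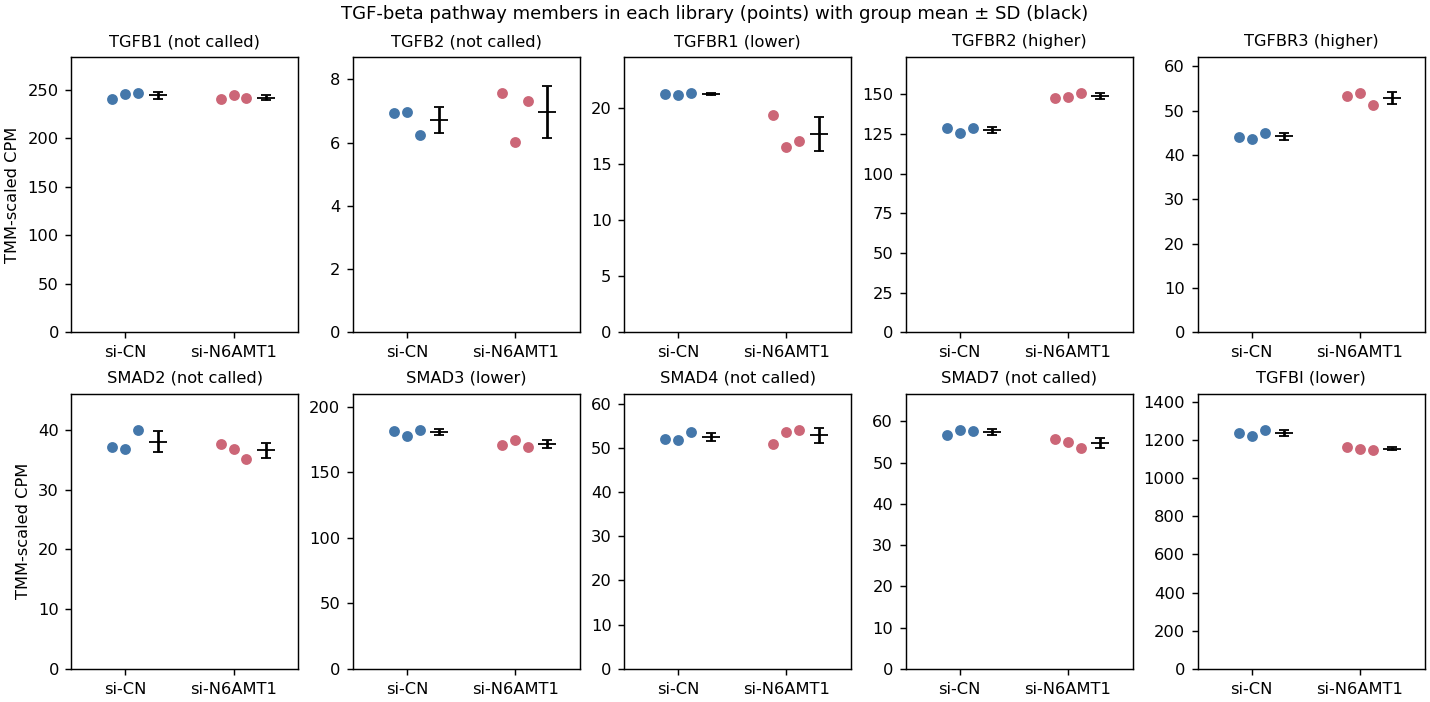
TMM-scaled CPM (y axes, each from 0) of the 10 members in the 3 si-CN libraries (blue) and the 3 si-N6AMT1 libraries (red), with group means ± SD in black and the edgeR call above each panel. The groups do not overlap for TGFBR1, TGFBR2, TGFBR3, SMAD3, SMAD7 and TGFBI, and the widest separation relative to the level is that of the receptors.

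TGFBR1, the type I receptor kinase that passes the signal to the SMADs, lies at chr9:101866320-101916474 on the plus strand of GRCh37. It was at 21.2, 21.2 and 21.4 CPM in the si-CN libraries and at 19.4, 16.5 and 17.1 CPM in the si-N6AMT1 libraries. Each knockdown library was below each control library, and the spread was wider among the knockdown libraries, of which replicate 1 stood nearest to the controls. TGFBR1 fell by 17.0% (95% interval -24.4% to -8.86%), a log2 fold change of -0.27 (SE 0.0648, FDR = 0.00405 from edgeR). It was called in 13 of 13 alternative settings, with log2 fold changes from -0.34 to -0.22 and an adjusted p of up to 0.0476, the value from DESeq2 on all genes with a count. In bulk RNA, fewer cells that express a gene and less of its RNA per cell cannot be told apart, here and for every gene that follows.

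TGFBR2, the type II receptor that binds ligand first and activates TGFBR1, lies at chr3:30648093-30735634 on the plus strand. Its level was 128, 126 and 128 CPM in si-CN and 147, 148 and 151 CPM in si-N6AMT1 libraries. The libraries were close together within each group and far apart between groups. TGFBR2 was 16.7% higher (95% interval 12.5% to 21.0%) after knockdown, a log2 fold change of 0.22 (SE 0.0256, FDR = 8.66e-07 from edgeR), and it stayed between 0.21 and 0.23 over the 13 alternatives.

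TGFBR3, or betaglycan, a co-receptor without a kinase that presents ligand to TGFBR2, lies at chr1:92145900-92371892 on the minus strand. Controls held 44.0, 43.5 and 45.0 CPM, and si-N6AMT1 libraries held 53.2, 54.0 and 51.2 CPM. Again no control reached any knockdown library. The rise was 19.5% (95% interval 13.1% to 26.3%), or 0.26 on the log2 scale (SE 0.0384, FDR = 2.90e-05 from edgeR), with a range of 0.24 to 0.28 over the alternatives.

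For each of the 3 receptors a two-sided exact permutation test of the log2 CPM values gave p = 0.1, the smallest that 3 libraries against 3 allow. The size of the log2 fold change exceeded that of 82.5% of all tested genes for TGFBR1, 81.4% for TGFBR3 and 77.0% for TGFBR2.

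**Figure D2:**
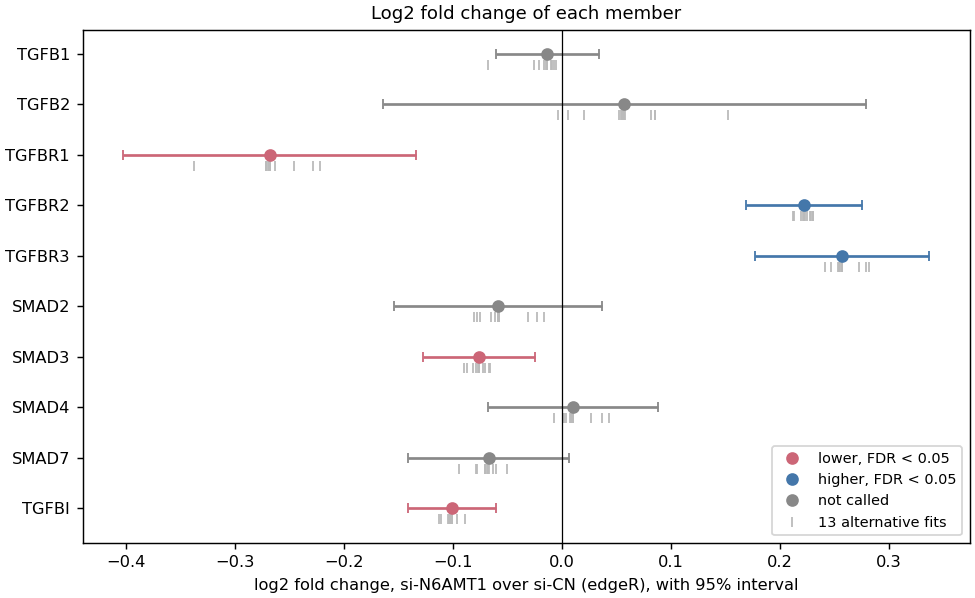
Log2 fold change of si-N6AMT1 over si-CN (x axis) for each member, as points with 95% intervals from edgeR, coloured by call, with grey ticks for the 13 alternative fits. The intervals of TGFBR1, TGFBR2, TGFBR3, SMAD3 and TGFBI do not reach 0, and TGFB2 has the widest interval.

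Because 1 receptor fell while the others rose, the ratios between receptor transcripts were set out per library as a description. Estimated TPM, a measure of transcripts that takes gene length into account, was used so that genes could be compared. It was computed from the reference transcript of each gene, and the size of a ratio depends on that length. With the mean length of all annotated transcripts, si-CN means were 58.0 TPM for TGFBR2, 22.7 for TGFBR3 and 8.70 for TGFBR1. TGFBR2 transcripts outnumbered those of TGFBR1 by 8.67, 8.50 and 8.61 to 1 in si-CN libraries and by 10.9, 12.9 and 12.6 to 1 in si-N6AMT1 libraries. The groups did not overlap, and the lowest ratio after knockdown was that of replicate 1, in which TGFBR1 was highest. The mean moved from 8.59 ± 0.0876 to 12.1 ± 1.07 (SD, n = 3 each), a difference of 0.49 on the log2 scale. That the groups are separate follows from the values of the receptors themselves. TGFBR3 over TGFBR1 moved likewise, from 2.13 ± 0.0265 to 3.08 ± 0.268. For both ratios over TGFBR1 a two-sided exact permutation test of log2 values gave p = 0.1, or 0.25 adjusted over 5 ratios. It rests on the same receptor values and adds no evidence. The ratio of TGFBR3 to TGFBR2, the receptors that both rose, was 0.248 ± 0.00282 in si-CN and 0.254 ± 0.00943 in si-N6AMT1 libraries, with groups that overlapped.

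**Figure D3:**
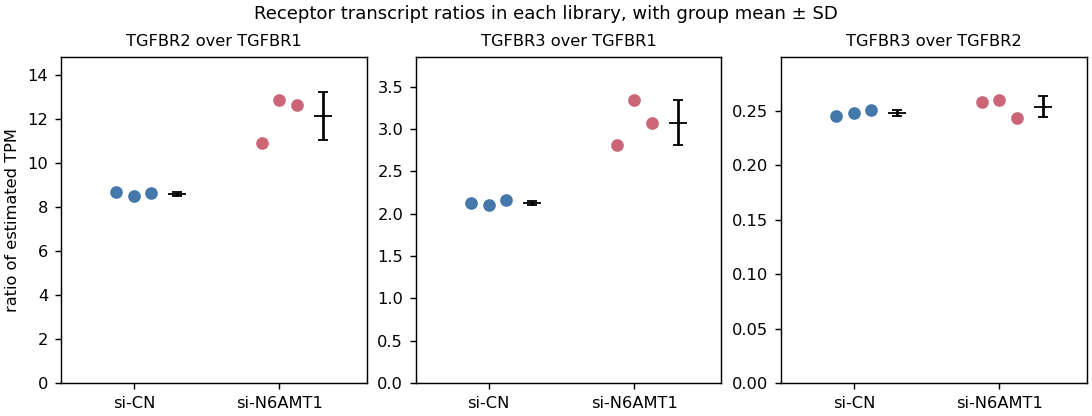
Ratios of estimated TPM between receptor transcripts (y axes, from 0) in each si-CN (blue) and si-N6AMT1 (red) library, with group means ± SD in black. Both ratios over TGFBR1 are higher in all 3 si-N6AMT1 libraries, from 10.9 to 12.9 for TGFBR2, while TGFBR3 over TGFBR2 overlaps between groups.

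The start regions of the receptor genes are shown because these genes had the largest differences among the members. Each is the 300 bases from 250 before to 50 within the reference transcript of GENCODE v44, read 5′ to 3′ on the gene's strand of GRCh37, with the GC box, GGGCGG or CCGCCC, in capitals. The windows are chr9:101867145-101867444 on the plus strand for TGFBR1, chr3:30647843-30648142 on the plus strand for TGFBR2 and chr1:92351659-92351958 on the minus strand for TGFBR3.
TGFBR1: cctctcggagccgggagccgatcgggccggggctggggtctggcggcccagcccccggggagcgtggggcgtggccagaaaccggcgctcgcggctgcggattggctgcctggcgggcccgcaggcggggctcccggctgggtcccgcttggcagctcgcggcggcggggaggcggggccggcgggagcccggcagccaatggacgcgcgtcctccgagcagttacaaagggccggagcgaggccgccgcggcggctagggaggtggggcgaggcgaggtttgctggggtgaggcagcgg
TGFBR2: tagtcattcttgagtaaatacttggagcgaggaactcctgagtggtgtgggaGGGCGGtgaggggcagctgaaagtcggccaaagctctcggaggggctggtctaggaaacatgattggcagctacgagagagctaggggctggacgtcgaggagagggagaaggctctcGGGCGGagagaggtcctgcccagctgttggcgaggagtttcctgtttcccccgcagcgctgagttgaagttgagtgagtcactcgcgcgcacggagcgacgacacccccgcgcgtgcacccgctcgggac
TGFBR3: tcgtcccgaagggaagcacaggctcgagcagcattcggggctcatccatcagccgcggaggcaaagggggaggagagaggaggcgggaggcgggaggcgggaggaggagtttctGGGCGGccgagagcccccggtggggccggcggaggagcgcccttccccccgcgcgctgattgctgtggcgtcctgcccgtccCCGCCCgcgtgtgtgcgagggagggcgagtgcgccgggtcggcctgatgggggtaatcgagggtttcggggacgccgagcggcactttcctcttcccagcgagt

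The TGFBR1 window, which is 78.7% G or C, held no GC box in this exact form. Those of TGFBR2 (61.7% G or C) and TGFBR3 (71.7%) held 2 each. Near matches such as GGCGGG, which the TGFBR1 window holds, were not counted. Exact GC boxes, letters that SP1-family factors can bind, were in the windows of 7 of the 10 members. They were in 61.1% of the windows of 20013 protein-coding genes. None of the 10 windows held CAGGCTGG or its reverse complement CCAGCCTG, which 4.90% of all windows held. This 8-base sequence was searched because the study names it as the leading motif of its 6mA fragments, and the 6mA data were not analysed here. TATAAA or TTTATA was in the window of 1 member, TGFB2, and in 9.73% of all windows. These are counts of letters in short windows and do not show where any factor or mark lies.

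TGFB1, the ligand most widely expressed by epithelial cells, lies at chr19:41807492-41859827 on the minus strand. It was at 240, 246 and 247 CPM in si-CN and 241, 245 and 241 CPM in si-N6AMT1 libraries. The groups overlapped, and the log2 fold change of -0.01 had a narrow 95% interval, from -0.06 to 0.03 (SE 0.0228, FDR = 0.743 from edgeR). TGFB1 overlaps HNRNPUL1 on the opposite strand, which had on average 84.2% as many counts, and the strand setting of the counting is not given in the sources used here.

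TGFB2, a ligand that depends on TGFBR3 for efficient binding to TGFBR2, lies at chr1:218518678-218617961 on the plus strand. It was the member with the fewest counts, with 136, 137 and 132 in si-CN and 150, 123 and 150 in si-N6AMT1 libraries. Replicate 2 of si-N6AMT1 was the lowest of all 6 libraries and the other two were the highest. At this depth the log2 fold change of 0.06 had a 95% interval from -0.16 to 0.28 (SE 0.107, FDR = 0.771 from edgeR), which includes rises as large as those of TGFBR2 and TGFBR3 but not a fall as large as that of TGFBR1. The ratio of TGFB1 to TGFB2 transcripts was 77.2 ± 5.68 in si-CN and 74.1 ± 10.1 in si-N6AMT1 libraries, and the groups overlapped. TGFB2-OT1, annotated on the same strand within TGFB2, had 23.2% as many counts, and reads may have been divided between them.

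SMAD3, which binds DNA directly once phosphorylated, lies at chr15:67356101-67487511 on the plus strand. Its values were 182, 178 and 183 CPM in si-CN and 171, 175 and 169 CPM in si-N6AMT1 libraries. The groups were separate, though the gap between the nearest libraries was small. SMAD3 fell by 5.13% (95% interval -8.44% to -1.71%), a log2 fold change of -0.08 (SE 0.0247, FDR = 0.0305 from edgeR). It was called in 5 of 13 alternatives. The adjusted p was 0.128 and 0.104 by DESeq2, and it was 0.0750 without si-N6AMT1 replicate 1, 0.128 without si-N6AMT1 replicate 3, 0.0689 without si-CN replicate 1 and 0.126 without si-CN replicate 3.

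SMAD2, the close relative of SMAD3 whose main form does not bind DNA directly, lies at chr18:45335328-45457517 on the minus strand. Levels of 37.2, 36.9 and 40.1 CPM in si-CN and 37.6, 36.9 and 35.2 CPM in si-N6AMT1 libraries overlapped, and replicate 3 of each group stood apart from its other two. The log2 fold change was -0.06 (95% interval -0.15 to 0.04, SE 0.0458, FDR = 0.417 from edgeR). The ratio of SMAD3 to SMAD2 transcripts was 25.5 ± 0.945 in si-CN and 25.2 ± 0.762 in si-N6AMT1 libraries on the reference lengths, and the groups overlapped. That ratio depends on a SMAD2 reference transcript of 34626 bases, of which 32870 are 3′ UTR.

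SMAD4, the shared partner of activated SMADs, lies at chr18:48554898-48611415 on the plus strand and had 52.1, 51.8 and 53.6 CPM in si-CN and 51.0, 53.5 and 54.1 CPM in si-N6AMT1 libraries. The groups were interleaved. With a log2 fold change of 0.01 and a 95% interval from -0.07 to 0.09 (SE 0.0377, FDR = 0.897 from edgeR), a change as large as that of TGFBR2 lies outside the interval.

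SMAD7, the inhibitor that recruits ubiquitin ligases to the receptor, lies at chr18:46446223-46477335 on the minus strand. It was at 56.6, 58.0 and 57.6 CPM in si-CN and at 55.8, 55.0 and 53.5 CPM in si-N6AMT1 libraries. Every knockdown library was below every control, by little. The log2 fold change of -0.07 was not called (95% interval -0.14 to 0.01, SE 0.0356, FDR = 0.203 from edgeR), nor was it in any of the 13 alternatives, in which it ran from -0.09 to -0.05.

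TGFBI, a secreted matrix protein named for its induction by TGF-beta, lies at chr5:135364677-135399507 on the plus strand. It was at 1235, 1219 and 1254 CPM in si-CN and 1160, 1152 and 1145 CPM in si-N6AMT1 libraries. The groups were clearly apart, with less spread after knockdown. TGFBI fell by 6.77% (95% interval -9.35% to -4.11%), a log2 fold change of -0.10 (SE 0.0196, FDR = 0.000538 from edgeR), and it was called in 13 of 13 alternatives with values from -0.11 to -0.09. Its size exceeded that of 47.7% of tested genes, so the low FDR goes with a small difference in a gene of many counts.

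Among the members, levels per transcript length spanned from 2.44 to 1014 estimated TPM in si-CN libraries. TGFBI came first, followed by TGFB1 at 196 TPM. TGFBR2 at 62.6 and SMAD3 at 62.3 TPM were next and overlapped between libraries. SMAD7 at 38.2, TGFBR3 at 15.5, SMAD4 at 13.3 and TGFBR1 at 7.29 TPM followed in that order without overlap between neighbours. TGFB2 at 2.54 and SMAD2 at 2.44 TPM were lowest and overlapped. The type I receptor was thus the least abundant of the 3 receptor transcripts in both groups. With the mean length of all annotated transcripts in place of the reference transcript, the order changed. SMAD3 (99.6 TPM) and SMAD7 (66.4 TPM) then stood above TGFBR2 (58.0 TPM), which moved from rank 3 to rank 5. SMAD2 was at 10.1 TPM and ranked 8 of the 10, while TGFB2 ranked 10 and TGFBR1 ranked 9.

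**Figure D4:**
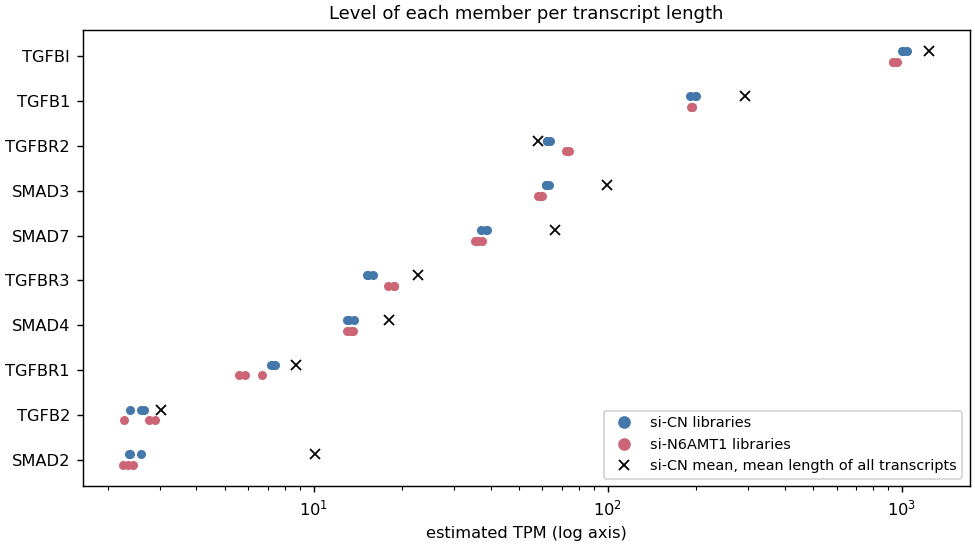
Estimated TPM (x axis, log scale) of the members in si-CN (blue) and si-N6AMT1 (red) libraries from the reference transcript length, ordered by the si-CN mean, with crosses for the si-CN mean from the mean length of all transcripts. TGFBI is highest at 1014 TPM, TGFBR1 lies below the other two receptors, and the cross of SMAD2 lies at 10.1 TPM, far to the right of its points.

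The genes whose pattern over the 6 libraries was most like that of TGFBR1 and of TGFBR3, the called members with the largest fall and rise, were found among 9735 other protein-coding genes with a mean of at least 10 CPM. Likeness was the root mean square difference of centred log2 CPM. For TGFBR1 these were CREB3L2 (0.0160), FECH (0.0195) and SP4 (0.0206). For TGFBR3 they were FAM234B (0.0190), ATP5F1D (0.0197) and ZNFX1 (0.0199). These 6 genes are chosen by likeness, so their own fold changes add no evidence.

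Beyond the members, 118 further genes of the pathway were listed by role, of which 108 were tested. In si-N6AMT1 libraries 21 of them were lower and 19 higher, beside 11.5% and 9.78% of all genes tested, and 68 were not called. The median log2 fold change of the 108 was 0.01. The count of lower genes was 12 without si-CN replicate 3 and 10 or 11 by DESeq2.

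Of 16 tested genes for other ligands and for ligand release and trapping, 5 were lower and 4 higher, with a median log2 fold change of -0.02. Over all genes tested the shares were 11.5% lower and 9.78% higher. LTBP1, which tethers latent TGF-beta to the matrix, fell from 41.0 ± 0.483 to 30.6 ± 1.01 CPM (log2 fold change -0.42, FDR = 1.77e-07 from edgeR). ITGB6, part of an integrin that releases latent TGF-beta, fell by 0.26, and FURIN, the protease that cleaves the precursor, fell by 0.13 on the log2 scale. THBS1, which encodes an activator of the latent ligand, rose from 468 ± 1.93 to 536 ± 10.9 CPM (0.19). INHBA, an activin subunit, rose by 0.32, and so did FST, which binds and blocks activin, by 0.40. Genes of release were thus found in both directions. For trapping, LTBP1, which holds latent TGF-beta, was lower, and FST, which binds activin, was higher. The 9 calls were 5 without si-N6AMT1 replicate 2, without si-CN replicate 3 and by DESeq2.

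Of 12 other receptors of the family, 2 were lower and 1 was higher, close to the 11.5% and 9.78% of all genes tested, with a median log2 fold change of 0.02. The BMP receptor BMPR2 fell from 58.7 ± 2.08 to 52.2 ± 2.35 CPM (log2 fold change -0.17, FDR = 0.00379 from edgeR) and the type I receptor ACVR1 fell from 21.1 ± 0.240 to 18.4 ± 0.556 CPM (-0.20). ACVR1B, the type I receptor for activin, rose from 48.5 ± 1.27 to 56.0 ± 0.295 CPM (0.21). Of the 4 remaining SMADs, SMAD9 (log2 fold change -0.34, FDR = 0.000731 from edgeR) and SMAD5 (-0.10), both carriers of BMP signals, were lower, beside 11.5% of all genes tested. The count of 2 was 1 without si-N6AMT1 replicate 3, without si-CN replicate 2, without si-CN replicate 3 and by DESeq2. It was also 1 with the replicate number as a block and a GC correction.

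Regulators of SMADs and receptors were lower in 6 and higher in 2 of 27 cases, beside 11.5% and 9.78% of all genes tested. Their median log2 fold change was 0.00. PMEPA1, a TGF-beta-induced inhibitor that sequesters SMAD2 and SMAD3, fell from 168 ± 2.86 to 141 ± 3.04 CPM (log2 fold change -0.25, FDR = 1.72e-07 from edgeR). ZFYVE16, an endosomal protein that binds SMAD4, fell by 0.17, and USP15, a deubiquitinase acting on the receptor complex, fell by 0.15. The ubiquitin ligases SMURF2, from 128 ± 2.52 to 141 ± 2.22 CPM (0.14), and SMURF1 (0.10), which act with SMAD7 on the receptor, rose. The 8 calls were 5 without si-N6AMT1 replicate 2, without si-N6AMT1 replicate 3 and without si-CN replicate 2, and 4 by DESeq2. They were also 5 with the replicate number as a block and a GC correction. Among 9 genes of non-SMAD signalling, SHC1 and TRAF4 were higher, each by 0.09 on the log2 scale, and 0 were lower, beside 9.78% and 11.5% of all genes tested. The median was 0.03, and so few genes do not set this list apart. Only 1 of that pair was called in the fits without si-N6AMT1 replicate 1, 2 or 3 and without si-CN replicate 1 or 3. The same held by DESeq2, without the filter on low counts and with the replicate number alone as a block.

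Of 40 tested genes from a list of TGF-beta targets, 6 were lower, 10 were higher and 24 were not called, with a median log2 fold change of 0.02. The shares over all genes tested were 11.5% lower and 9.78% higher. Whether TGF-beta induces each listed gene in these cells was not tested. The feedback target SKIL, listed with the regulators above and not among these 40, was not called (log2 fold change -0.02, FDR = 0.693 from edgeR). PMEPA1, also TGF-beta-induced and listed there, was lower. HMGA2, a chromatin protein of mesenchymal change, rose from 171 ± 3.16 to 208 ± 2.65 CPM (0.28, FDR = 1.16e-08 from edgeR), and the matrix gene FN1 rose from 666 ± 14.1 to 775 ± 17.8 CPM (0.22). TIMP1, a protease inhibitor, rose by 0.26. GADD45B, a stress gene, fell from 59.7 ± 0.801 to 51.0 ± 0.702 CPM (-0.23), the growth factor gene PDGFB fell by 0.23 and the tropomyosin gene TPM1 fell by 0.14. Listed targets, TGFBI among the members included, thus moved in both directions.

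**Figure D5:**
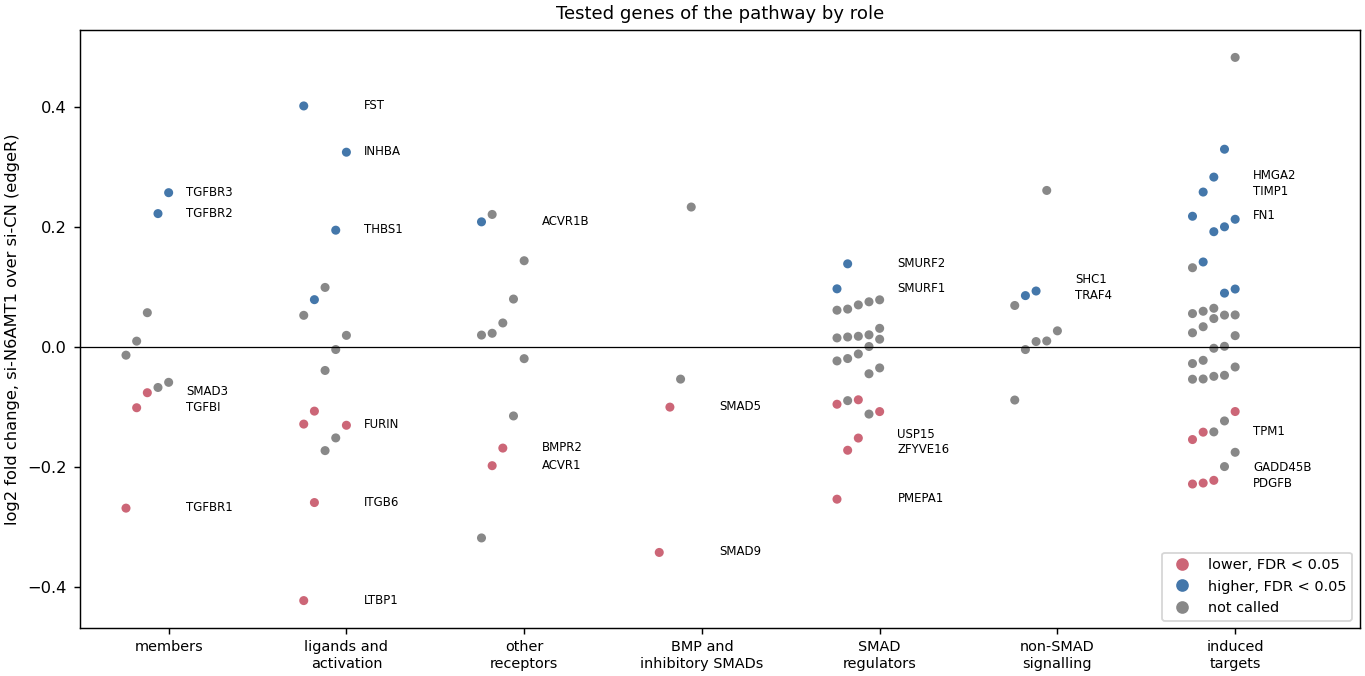
Log2 fold change of si-N6AMT1 over si-CN from edgeR (y axis) for the tested members and for 108 other tested pathway genes grouped by role (x axis), coloured by call, with named genes labelled. Every group but the SMADs of BMP signals and non-SMAD signalling holds called genes on both sides of 0.

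The 3′ UTRs of the members were searched for TTCACAT and TCACATA, sequences picked in earlier work on these libraries, and whether they go with lower levels was not tested here. Of the 10 members, only SMAD2 held them, in 4 places of its long reference 3′ UTR, beside 22.5% of 13150 tested genes with a 3′ UTR. The median 3′ UTR was 3326.5 bases among the members and 1341 among those tested genes, so the shares are not matched for length. The 3 members called lower, TGFBR1 (4887 bases of 3′ UTR), SMAD3 (4633 bases) and TGFBI (592 bases), held neither sequence. SMAD2 itself was not called. The first of its sites, where both sequences overlap, is shown with flanking bases and with the match in capitals. The stretch shown is chr18:45359330-45359359 on the minus strand of GRCh37.
SMAD2: agtgattgtatTTCACATAtggacatatga
The match begins at base 8850 of the UTR, and only 2 of 5 annotated coding SMAD2 transcripts with a 3′ UTR hold any such site.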

How the data were processed

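Per the labels, total RNA of integrity at least 8.0 from cells labelled MDA-MB-453 was made into stranded mRNA libraries, 3 per group. The authors trimmed reads with Trim Galore, estimated counts with kallisto v0.46.0 on hg19 and summed them per gene. The deposited values are these estimated counts (expected counts) in whole numbers, without normalization. Since kallisto divides reads among similar transcripts, counts of overlapping genes are uncertain. The counts were tested here under R v4.3.3 by the quasi-likelihood test of edgeR v4.0.16 (minimum count 10, TMM scaling, no covariate). Adjustment over the 17320 genes was by Benjamini-Hochberg (FDR, threshold 0.05). The procedure was first tested on simulated counts. CPM is TMM-scaled. Symbols (62149 of 62438 identifiers), lengths and positions came from GENCODE v44 on GRCh37. The study used DESeq2, which was an alternative here (v1.42.0), as were RLE, no filter, limma-voom (v3.58.1), a replicate block with and without GC correction, and each library left out. Named genes were the members, N6AMT1, markers, SKIL, up to 3 called genes per list and direction by FDR, and 3 most-like genes for 2 members. SKIL was added after its values were seen. A few listed genes are counted in their lists but not reported here by name. Members and lists were chosen with earlier results of these data known. The labels do not say that triplicates were separate cultures, so p-values measure the spread between these libraries, which may be technical.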

Additional observations from a re-analysis of the deposited data

How the results depend on the processing

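N6AMT1, TGFBR1, TGFBR2, TGFBR3 and TGFBI kept their direction and their call in all 13 alternatives, and SMAD3 kept its direction but was called in 5 of 13. DESeq2 on all genes with a count called 1932 genes (1136 lower, 796 higher), and on the most highly counted genes 2212 (1270 lower, 942 higher), compared with 3687 by edgeR (1993 lower, 1694 higher). Of the other pathway genes DESeq2 called 24 and 25 in place of 40, with 10 and 11 lower in place of 21, and without si-CN replicate 3 the lower count was 12. The cause was not tested. With 1 library left out, 2835 to 3341 genes were called over all, 4 to 5 of the members and 30 to 37 of the other pathway genes, with 12 to 20 of these lower. Deviations of same-numbered libraries over 10103 genes correlated at -0.12, -0.09 and 0.01, and those of differently numbered libraries at -0.03 to 0.11. Whether libraries were paired under other numbers was not tested. With the replicate number as a block, 3326 genes and 4 members were called, and with the block and a GC correction 3088 genes and 4 members, SMAD3 being the member lost. The latter fit called 0 of the 9 non-SMAD signalling genes. The uncalled TGFB2 and SMAD4 changed sign in 1 alternative each. At about 20 counts per CPM, depth limits TGFB2 most.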
